A study of Rattus norvegicus with 18 samples.

Results

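The mitochondrial ribosome and the machinery that copies, charges and translates in mitochondria were followed here through 51 nuclear genes, of 6588 genes in at least 1 of the authors' 3 lists of changed genes. Members were chosen by symbol: mitochondrial ribosomal proteins (Mrpl and Mrps), mitochondrial aminoacyl-tRNA synthetases (symbols ending in ars2), and Polrmt, Tfb1m, Tfb2m, Lrpprc, Tufm, Tsfm, Gfm1, Gfm2, Polg and Twnk. Of these, 46 stood among the 5700 genes listed for ZSF1 obese over ZSF1 lean hearts, 45 among the 5709 listed for ZSF1 obese over WKY hearts, and 0 among the 233 listed for ZSF1 lean over WKY hearts. Polyadenylated RNA came from the left ventricle of male rats. There were 6 ZSF1 obese rats (hypertension plus metabolic syndrome, the group labelled HFpEF, a form of heart failure in which the ejection fraction is preserved), 6 ZSF1 lean rats (hypertension) and 6 WKY rats (the Wistar Kyoto control strain). ZSF1 rats are hybrids in which obesity follows from mutations of the leptin receptor, so obese and lean animals share their parent strains while WKY differs in strain as well as in disease. Age was not given in the sources used here. Levels per rat were not analysed here: each gene has a fold (linear) and an adjusted p-value from the authors' DESeq2 comparison of 6 rats with 6. Depth per sample is therefore unknown, a listed gene has a fold of 2 or above, or 0.5 or below, with an adjusted p under 0.05, and a gene outside a list may be unchanged, changed by less, or not detected.

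Mitochondria keep a small genome whose mRNAs encode subunits of the respiratory chain and ATP synthase. Nuclear genes supply all proteins needed to express it: a polymerase and its factors for transcription, enzymes that cut, modify and stabilise the RNA, synthetases that load each tRNA with its amino acid, and a ribosome of a large and a small subunit with its own elongation factors. The heart is rich in mitochondria, and in humans inherited defects of several of these genes cause cardiomyopathy.

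Every listed member fell in obese hearts, against lean hearts and against WKY hearts. In the authors' deposited table for lean hearts, 46 members fell and 0 rose, where 46.6% of all listed genes fell and 53.4% rose. In that for WKY hearts, 45 fell and 0 rose, where 46.0% of all listed genes fell and 54.0% rose. RefSeq annotates 106 protein-coding rat genes under the same symbol rule, 4 of them copies named as like another member. The 46 and 45 fallen members are 43.4% and 42.5% of these, whereas 10.9% and 10.8% of all 23154 protein-coding RefSeq genes were listed as fallen, 12.2% and 12.4% as risen, and 23.1% and 23.3% in either direction. All of these shares of protein-coding RefSeq genes, here and below, include genes the heart does not express. They are therefore not a like background for members, and no test of the difference was made. The remaining 55 genes under the rule stood in neither obese table.

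Folds of the members ran from 0.129 to 0.497 against lean hearts in the authors' deposited table, with a median of 0.349, and from 0.122 to 0.497 against WKY hearts, with a median of 0.351. All listed genes that fell had medians of 0.314 and 0.312 in the same authors' deposited tables, so the median member fell by a little less than the median fallen gene. A fold of 0.25 or less was reached by 12 of 46 members (26.1%) against lean hearts, beside 34.0% of all fallen genes, and by 11 of 45 (24.4%) against WKY hearts, beside 35.4%. The weakest adjusted p of any member in the authors' deposited tables was 7.77e-06 against lean hearts and 4.30e-06 against WKY hearts. Both comparisons use the same 6 obese hearts, so they are not independent of each other, and their values are given side by side.

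**Figure D1:**
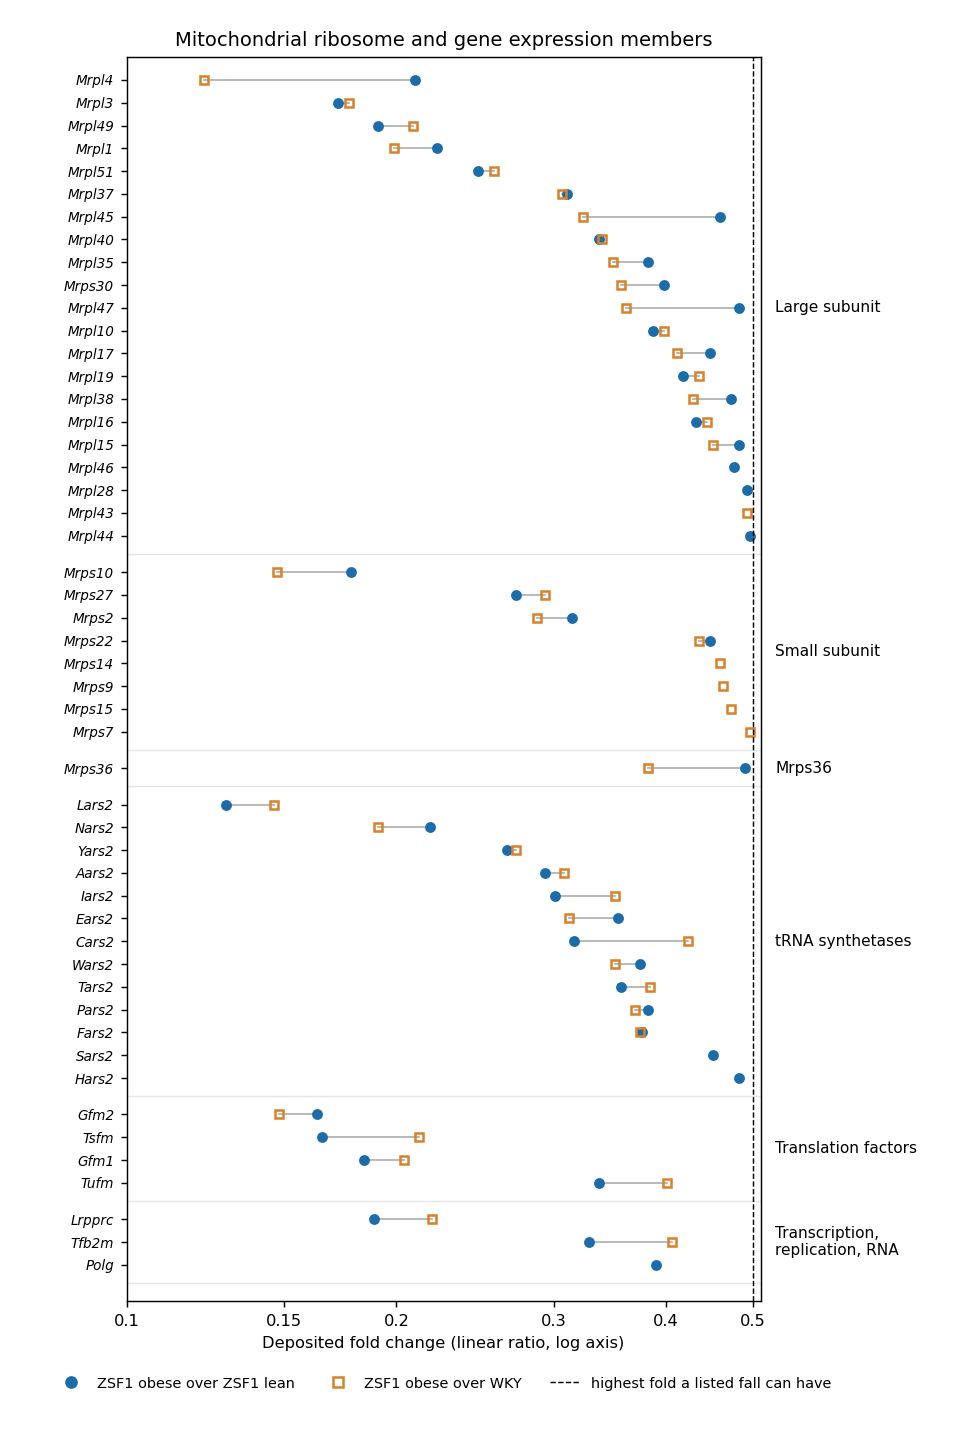
Deposited folds of the members named in the text (horizontal log axis, linear ratio), grouped by role, with filled circles for ZSF1 obese over ZSF1 lean and open squares for ZSF1 obese over WKY. All points lie left of the dashed line at 0.5, the highest fold a listed fall can have, and the lowest are Mrpl4 at 0.122 over WKY and Lars2 at 0.129 over lean.

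The large subunit, which holds the peptidyl transferase centre and the exit tunnel, gave 20 falls among 50 annotated genes against lean hearts (40.0%) and 18 against WKY hearts (36.0%). For comparison, 10.9% and 10.8% of all protein-coding genes were listed as fallen. Median folds of the listed large subunit genes were 0.408 and 0.352 in the authors' deposited tables. Mrpl3, a core protein of this subunit whose human counterpart is mutated in a mitochondrial cardiomyopathy, stood at 0.172 of the lean level (adjusted p = 3.03e-114) and 0.177 of the WKY level (adjusted p = 2.47e-68) in the authors' deposited tables. Mrpl4, whose bacterial counterpart lines the exit tunnel, stood at 0.210 of the lean level and, lowest of all members, at 0.122 of the WKY level in the authors' deposited tables (adjusted p = 9.19e-32 and 2.38e-50). Mrpl49, a protein with no bacterial counterpart, stood at 0.191 and 0.209 in the authors' deposited tables (adjusted p = 2.19e-42 and 2.32e-28). These 3 genes and Mrpl1, Mrpl51 and Mrpl37 were the 6 deepest falls of the subunit over WKY, and again the 6 deepest over lean. The authors' deposited tables had Mrpl1, of the flexible stalk at the tRNA exit side, at 0.222 and 0.199, Mrpl51 at 0.247 and 0.257 (adjusted p = 1.91e-109 and 1.20e-53), and Mrpl37 at 0.310 and 0.306.

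Shallower falls filled the rest of the large subunit. Mrpl10, which anchors the stalk that recruits elongation factors, stood at 0.387 of the lean level and 0.398 of the WKY level in the authors' deposited tables. Mrps30, named for the small subunit but located in the large one, stood at 0.398 and 0.356 in the authors' deposited tables, and Mrpl45, which ties the ribosome to the inner membrane, at 0.460 and 0.323. Mrpl47, near the tunnel exit, had folds of 0.483 and 0.361 in the authors' deposited tables. Mrpl4, Mrpl45 and Mrpl47 had the widest distance between their values in this subunit, each lower against WKY hearts. Mrpl40 (0.337 and 0.339), Mrpl35 (0.382 and 0.349), Mrpl19 (0.418 and 0.435), Mrpl16 (0.432 and 0.444), Mrpl17 (0.448 and 0.412), Mrpl38 (0.473 and 0.429) and Mrpl15 (0.483 and 0.451) completed the set present in both of the authors' deposited tables, each with the value over lean given before that over WKY. Close to the limit of 0.5, the authors' deposited table for lean hearts also held Mrpl46 at 0.476, Mrpl28 at 0.493 and Mrpl44, whose human counterpart is mutated in a cardiomyopathy, at 0.497, and the table for WKY hearts held Mrpl43 at 0.493.

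Ribosomal proteins divide into those inherited from the bacterial ribosome and those added in mitochondria, and no test of a difference between the classes was made. In the large subunit, leaving out the like-named copies, 11 of 27 genes with a bacterial counterpart fell against lean hearts (40.7%) and 9 of 21 without one (42.9%), with median folds of 0.418 and 0.398 in the authors' deposited table. Against WKY hearts the counts were 10 of 27 (37.0%) and 8 of 21 (38.1%). In the small subunit, 2 of 16 genes with a bacterial counterpart (12.5%) and 2 of 10 without one (20.0%) fell against lean hearts. Against WKY hearts these counts were 6 of 16 (37.5%) and 2 of 10 (20.0%). Of all protein-coding genes, 10.9% and 10.8% were listed as fallen against lean and WKY hearts. The small subunit shares against lean hearts rest on few genes near that level, so they are no result about the classes.

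In the small subunit, which reads the mRNA, 4 of 27 annotated genes fell against lean hearts (14.8%) and 8 of 27 against WKY hearts (29.6%), where 10.9% and 10.8% of all protein-coding genes were listed as fallen. The share against lean hearts is near that of all genes, so the count there is no result about the subunit. Mrps10, a protein of the head of the subunit, stood at 0.178 of the lean level (adjusted p = 3.28e-44) and 0.147 of the WKY level (adjusted p = 1.27e-40) in the authors' deposited tables. Mrps27, a pentatricopeptide repeat protein of the small subunit, had folds of 0.272 and 0.293, and Mrps2 folds of 0.314 and 0.287, in the authors' deposited tables. Mrps22, whose human counterpart is mutated in a fatal neonatal disease with cardiomyopathy, stood at 0.448 and 0.435 in the authors' deposited tables. A further 4 proteins were listed against WKY hearts and not against lean hearts, with folds of 0.460 for Mrps14, 0.463 for Mrps9, 0.473 for Mrps15 and 0.497 for Mrps7 in the authors' deposited table. All 4 have bacterial counterparts and lay close to the limit of 0.5, so their absence from the other table is not shown to be a difference between the comparisons. Mrps36, despite its name, is a subunit of the 2-oxoglutarate dehydrogenase complex (current symbol Kgd4). It stood at 0.490 of the lean level and 0.382 of the WKY level in the authors' deposited tables (adjusted p = 5.55e-06 and 1.23e-07).

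Mitochondrial aminoacyl-tRNA synthetases load the tRNAs of the mitochondrial genome. Of 17 annotated, 14 fell against lean hearts (82.4%) and 12 against WKY hearts (70.6%), with median folds of 0.349 and 0.351 in the authors' deposited tables. Among all protein-coding genes the shares listed as fallen were 10.9% and 10.8%. Mars2, Rars2 and Vars2 were in neither table. Lars2, the leucine enzyme, had the deepest fall of any member against lean hearts, at 0.129 (adjusted p = 7.91e-68, the 272nd lowest fold among 2655 fallen genes), and stood at 0.146 against WKY hearts (adjusted p = 1.37e-52) in the authors' deposited tables. The asparagine enzyme Nars2 followed at 0.218 and 0.191 in the authors' deposited tables (adjusted p = 1.03e-59 and 1.61e-59). Iars2, the isoleucine enzyme, had the smallest adjusted p of all members against lean hearts, with a fold of 0.301 (adjusted p = 2.77e-122), and a fold of 0.351 against WKY hearts (adjusted p = 3.66e-70) in the authors' deposited tables. Aars2, the alanine enzyme, whose human counterpart is mutated in an infantile cardiomyopathy, stood at 0.293 and 0.308 in the authors' deposited tables (adjusted p = 4.16e-86 and 3.70e-65).

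Further enzymes lay between these values and the limit. Yars2 (tyrosine) stood at 0.266 of the lean level and 0.272 of the WKY level in the authors' deposited tables. Cars2 (cysteine) had folds of 0.316 and 0.423 in the authors' deposited tables, the widest distance in this group toward a deeper fall against lean hearts. Folds over lean and over WKY in the authors' deposited tables were 0.354 and 0.312 for Ears2 (glutamate), 0.356 and 0.384 for Tars2 (threonine), 0.374 and 0.351 for Wars2 (tryptophan), 0.376 and 0.374 for Fars2 (phenylalanine), and 0.382 and 0.369 for Pars2 (proline). Sars2 (serine) at 0.451 and Hars2 (histidine) at 0.483 were in the authors' deposited table for lean hearts and not in that for WKY hearts. The cytosolic synthetases, listed for comparison, gave 3 falls among 21 genes against lean hearts (14.3%) and 2 against WKY hearts (9.52%), with 0 rises. These were Tars3, at 0.083 and 0.070, Farsb, at 0.374 and 0.366, and, against lean hearts, Iars1 at 0.463 in the authors' deposited tables. Both cytosolic shares lay near the 10.9% and 10.8% of all protein-coding genes listed as fallen. They are therefore no result about the cytosolic enzymes.

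**Figure D2:**
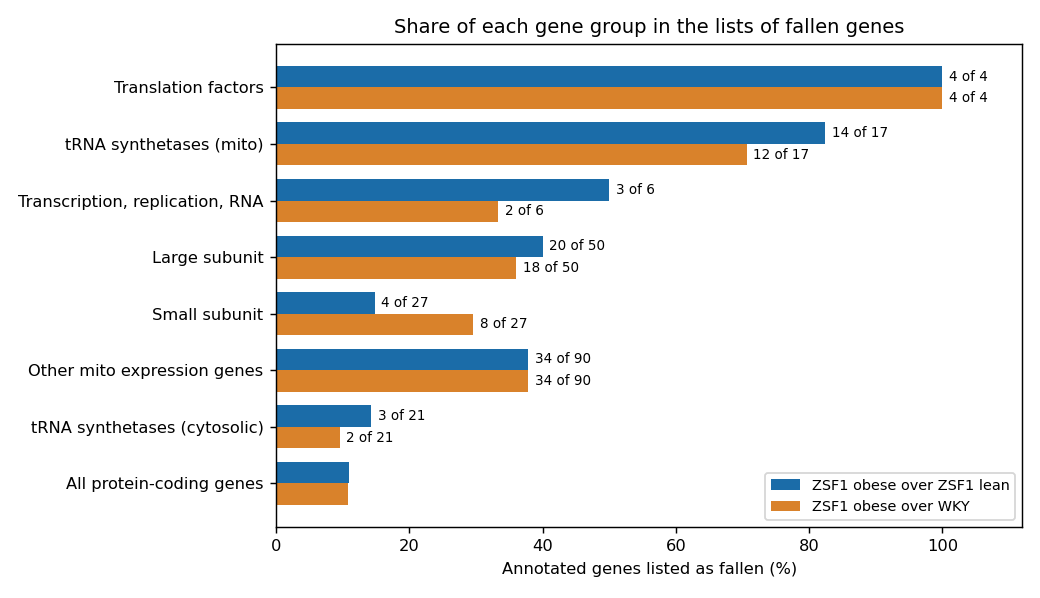
Share of annotated genes (horizontal axis, percent) listed as fallen in each role group, with blue bars for ZSF1 obese over ZSF1 lean and orange bars for ZSF1 obese over WKY, and the counts beside the bars. Mitochondrial tRNA synthetases reached 82.4% and 70.6%, cytosolic tRNA synthetases 14.3% and 9.52%, and all protein-coding genes 10.9% and 10.8%.

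All 4 translation factors fell in both comparisons, where 10.9% and 10.8% of all protein-coding genes were listed as fallen. Their median folds were 0.174 and 0.208 in the authors' deposited tables. Tufm, the elongation factor that delivers charged tRNA to the ribosome, stood at 0.337 of the lean level and 0.401 of the WKY level (adjusted p = 3.30e-11 and 5.24e-08) in the authors' deposited tables. Tsfm, its nucleotide exchange factor, whose human counterpart is mutated in a mitochondrial cardiomyopathy, fell further, to 0.165 and 0.212 in the authors' deposited tables (adjusted p = 2.41e-105 and 8.07e-45). Gfm1, the translocase of the elongating ribosome, stood at 0.184 and 0.204 and Gfm2, which splits the ribosome after termination, at 0.163 and 0.148 in the authors' deposited tables (adjusted p = 7.87e-80 and 8.52e-79 for Gfm2). Tufm thus kept a higher share of its lean and WKY levels than its partner Tsfm, a difference between genes that these tables give no error for.

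Among genes for transcription, replication and RNA stability, 3 of 6 fell against lean hearts and 2 of 6 against WKY hearts. These counts rest on few genes, and 10.9% and 10.8% of all protein-coding genes were listed as fallen. Lrpprc, which stabilises mitochondrial mRNAs and is mutated in a French Canadian form of Leigh syndrome in humans, stood at 0.189 of the lean level and 0.219 of the WKY level in the authors' deposited tables (adjusted p = 1.72e-52 and 1.45e-26). Tfb2m, the factor that opens the promoter for the mitochondrial RNA polymerase, had folds of 0.328 and 0.406 in the authors' deposited tables (adjusted p = 5.08e-23 and 9.52e-13). Polg, the catalytic subunit of the mitochondrial DNA polymerase, stood at 0.390 of the lean level (adjusted p = 1.93e-49) and was not in the authors' deposited table for WKY hearts. The polymerase gene Polrmt, the rRNA methyltransferase gene Tfb1m and the helicase gene Twnk were in neither table.

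Further genes of mitochondrial expression, outside the symbol rule, numbered 90. Of these, 34 fell (37.8%), 1 rose and 55 were not listed in each obese comparison. The median of those listed was 0.376 in both of the authors' deposited tables. Among all protein-coding genes, 10.9% and 10.8% were listed as fallen and 12.2% and 12.4% as risen. Gatb and Qrsl1 encode subunits of the amidotransferase that makes mitochondrial glutaminyl-tRNA. They stood at 0.120 and 0.188 of the lean level and at 0.149 and 0.171 of the WKY level in the authors' deposited tables. Ybey, an endonuclease of ribosome maturation, stood at 0.166 and 0.095 in the authors' deposited tables (adjusted p = 2.58e-62 and 4.41e-88), and Taco1, a translational activator of cytochrome oxidase, at 0.172 and 0.178. Mto1, which modifies the wobble base of mitochondrial tRNAs and is mutated in a human cardiomyopathy, stood at 0.192 and 0.202 in the authors' deposited tables. Pdf, the deformylase of new mitochondrial proteins, had folds of 0.228 and 0.299, and Grsf1, an RNA granule protein, folds of 0.228 and 0.204, in the authors' deposited tables. Top1mt, a mitochondrial DNA topoisomerase, was the gene that rose, with folds of 2.04 and 2.46 in the authors' deposited tables (adjusted p = 2.10e-16 and 3.58e-21).

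Each step had listed falls, against 10.9% and 10.8% of all protein-coding genes listed as fallen, and differences between the steps were not tested. RNA processing and stability gave 11 falls among 21 genes in each comparison and ribosome assembly 5 and 6 among 14. Transcription and DNA maintenance had 5 among 15 in each, tRNA and rRNA modification 6 and 4 among 19, and translation factors and charging accessories 7 among 18 in each. Tfam, which packages mitochondrial DNA and activates its transcription, stood at 0.412 of the lean level and 0.463 of the WKY level, and Tefm, the elongation factor of that transcription, at 0.230 and 0.232, in the authors' deposited tables. Dap3, a small subunit protein whose symbol falls outside the rule, stood at 0.376 and 0.460 in the authors' deposited tables. It was 1 of 6 ribosomal proteins outside the rule, of which 1 fell against lean hearts (16.7%) and 2 against WKY hearts (33.3%). With so few genes, these shares are no result about that group.

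The mRNAs that this machinery makes and reads moved the other way, while the 2 rRNAs of the mitochondrial genome were in none of the tables. Of 13 mRNAs of the mitochondrial genome, 12 rose and 0 fell against lean hearts, and 11 rose and 0 fell against WKY hearts, with medians of 3.29 and 2.41 in the authors' deposited tables. Of all protein-coding genes, 12.2% and 12.4% were listed as risen. Cytosolic ribosomal proteins also went against their mitochondrial counterparts, with 51 rises and 1 fall among 52 listed rows against lean hearts and 43 rises and 2 falls among 45 against WKY hearts. Their median folds were 2.59 and 2.48 in the authors' deposited tables. Of all listed genes 53.4% and 54.0% rose, and cytosolic ribosomal protein genes outside the lists were not counted. Cytosolic ribosomal protein genes have many near-identical copies, so their values are uncertain. Among the members, 11 have annotated pseudogenes in RefSeq (Mrpl1, Mrpl15, Mrpl17, Mrpl37, Mrpl40, Mrpl45, Mrpl46, Mrpl47, Mrps10, Mrps36 and Tufm), and their values carry the same doubt.

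**Figure D3:**
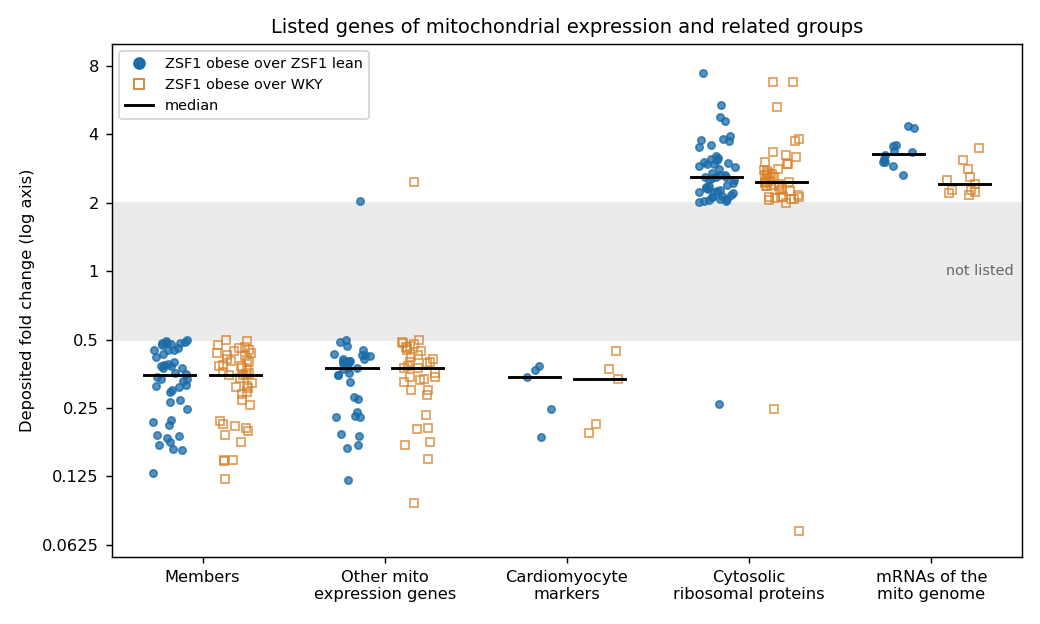
Deposited folds (vertical log axis) of listed genes, 1 point per listed row, with filled circles for ZSF1 obese over ZSF1 lean, open squares for ZSF1 obese over WKY and black lines at the medians. The grey band between 0.5 and 2 holds no listed gene. Members and cardiomyocyte markers lie below it, all mRNAs of the mitochondrial genome above it, and cytosolic ribosomal proteins above it except 1 row over lean and 2 over WKY.

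Markers of cell types moved in the same comparisons. In the authors' deposited tables, 5 of 12 cardiomyocyte markers fell and 0 rose in each obese comparison, with median folds of 0.344 and 0.334. The deepest of these 5 falls was that of Myh6, the alpha myosin heavy chain, at 0.187 and 0.195. Mybpc3 had the shallowest, at 0.384 and 0.444. Of 12 markers each, 8 and 10 rose for fibroblasts, 10 and 10 for endothelium, 11 and 12 for macrophages and 7 and 7 for lymphocytes, with 0 falls, against lean and WKY hearts in that order, and of 8 neutrophil markers 5 and 1 rose. Of all protein-coding genes, 10.9% and 10.8% were listed as fallen and 12.2% and 12.4% as risen. The neutrophil share against WKY hearts is near that of all risen genes. The other 7 cardiomyocyte markers were in neither obese table, and medians of listed falls cannot exceed 0.5 whichever genes they cover. In bulk tissue fewer cells of a type and less RNA per cell cannot be told apart, and the part of cell composition in the members' falls was not tested.

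Of 9 known regulators of these genes, 2 fell and 1 rose against lean hearts, and 3 fell and 1 rose against WKY hearts. Of all protein-coding genes, 10.9% and 10.8% were listed as fallen and 12.2% and 12.4% as risen. The coactivator Ppargc1a and its partner Esrra fell by more than most members, and a link between their falls and those of the members was not tested. Ppargc1a, which drives mitochondrial biogenesis, stood at 0.135 of the lean level and 0.097 of the WKY level, and Esrra, a nuclear receptor it works with, at 0.158 and 0.225, in the authors' deposited tables. Ppargc1b stood at 0.435 against WKY hearts in the authors' deposited table and was not listed against lean hearts, while Myc, a growth factor-responsive transcription factor, rose with folds of 2.71 and 2.77 in the authors' deposited tables. The genes for NRF1, for the ETS factor GABP and for YY1, which are known to act at promoters of mitochondrial genes, were in neither table.

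Promoter sequences were searched for the letters these factors are known to bind. RefSeq windows of 300 bases, from 250 before to 50 after the gene start (rat build GRCr8), were on hand for 41 of 51 members. On both strands the search was for GCGCA and GCGC with any base between them (NRF1), CCGGAAG (ETS factors), and AA and ATGGCGG with any base between them (YY1), and no ETS match overlapped a YY1 match in a member window. NRF1 letters stood in 6 of 41 member windows (14.6%), against 4.25% of all 33469 promoter windows. ETS letters stood in 10 (24.4%), against 8.75% of all windows. YY1 letters stood in 11 (26.8%), against 1.61% of all windows. Those windows cover 27457 genes, more than the 23154 protein-coding ones, whereas all members are protein-coding. All genes that fell against lean hearts had shares of 9.09% (NRF1), 13.1% (ETS) and 4.29% (YY1). Genes under the rule in neither obese table had 11.8%, 39.2% and 5.88% in 51 windows, so the ETS letters were commoner there than among members and the YY1 letters rarer. These shares are descriptions with no test, and a match is not a site of binding.

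**Figure D4:**
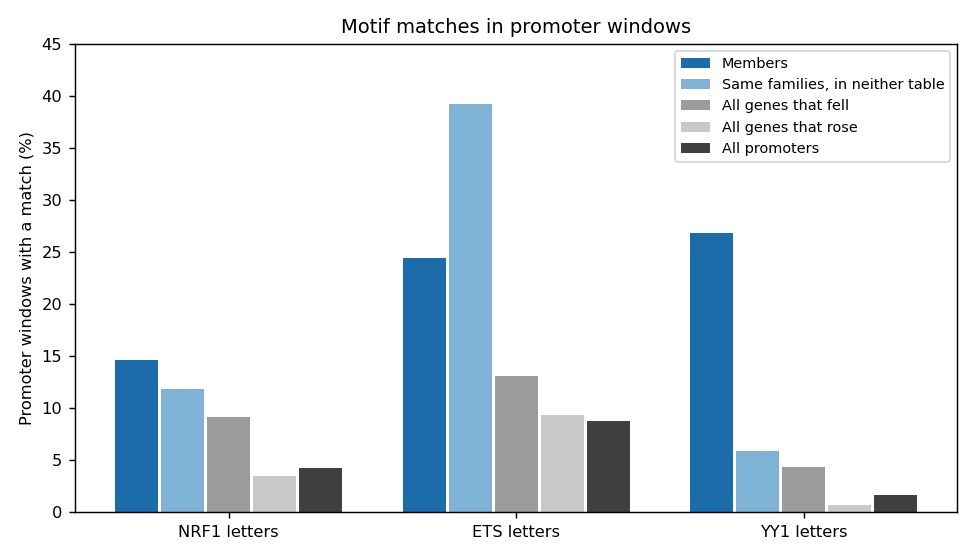
Share of promoter windows (vertical axis, percent) with a match to the NRF1, ETS or YY1 letters, for members, genes of the same families in neither obese table, all genes that fell or rose over lean, and all promoters. Members reach 26.8% for the YY1 letters, against 5.88% in the unlisted genes of the same families, 4.29% in all genes that fell and 0.654% in all genes that rose.

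All 11 YY1 matches lay on the strand of the gene, and 10 of them began 3 to 30 bases after the first base of the gene. They are shown with 10 bases on either side to let their common frame be seen, 5′ to 3′ on the strand of the gene, from RefSeq (build GRCr8), with the matched letters in capitals.
Aars2, chr9:22993511-22993540, minus strand: gcccggagctAAAATGGCGGcgtcagtggc
Fars2, chr17:28951575-28951604, minus strand: tctttccgtcAAGATGGCGGcgcccagcgc
Lars2, chr8:131887757-131887786, plus strand: ttgttttgccAACATGGCGGcgcccatagt
Mrpl1, chr14:13663488-13663517, minus strand: cggaacagtcAACATGGCGGcggccgcaag
Mrpl37, chr5:127074942-127074971, minus strand: tgcccgggcaAAGATGGCGGcgtccaggta
Mrpl46, chr1:142116987-142117016, minus strand: ggaagacggaAAGATGGCGGcgcccatagg
Mrps10, chr9:21122404-21122433, minus strand: tcagggcaccAAGATGGCGGcgcgcgcagc
Mrps14, chr13:74962607-74962636, plus strand: ctaggcagacAACATGGCGGcgtccttgct
Mrps27, chr2:32474223-32474252, plus strand: ggtacgctccAAGATGGCGGcccccatggt
Mrps30, chr2:52195867-52195896, minus strand: gcggaggacaAAGATGGCGGctgccaggta
Yars2, chr11:98142270-98142299, minus strand: cgtgtatcgcAAGATGGCGGcgcccatgct
The ATG of the matched letters is also the spelling of a start codon, and coding starts were not used here, so a shared motif and a shared beginning of the coding sequence cannot be told apart from these letters. The 11 genes include Lars2, Mrps10 and Mrpl1 among the deeper falls and Mrps14 and Mrpl46 among the shallower ones.

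Iars2 and Pars2 were the 2 members with both NRF1 and ETS letters, which stand in capitals in the following windows of 280 bases, from 250 before to 30 after the gene start. Mrpl49 is shown for the neighbour it shares its promoter with, Fau, which encodes a ubiquitin-like protein fused to cytosolic ribosomal protein S30 and is read in the opposite direction. Capitals in the Mrpl49 window mark the 265 bases that lie within the promoter window of Fau as well.
Iars2, chr13:99397039-99397318, minus strand: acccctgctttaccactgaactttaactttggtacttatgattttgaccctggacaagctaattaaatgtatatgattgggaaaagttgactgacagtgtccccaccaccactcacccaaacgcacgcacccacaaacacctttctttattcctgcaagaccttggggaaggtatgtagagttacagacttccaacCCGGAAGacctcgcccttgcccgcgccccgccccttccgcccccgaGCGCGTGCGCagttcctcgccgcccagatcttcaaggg
Pars2, chr5:126662669-126662948, plus strand: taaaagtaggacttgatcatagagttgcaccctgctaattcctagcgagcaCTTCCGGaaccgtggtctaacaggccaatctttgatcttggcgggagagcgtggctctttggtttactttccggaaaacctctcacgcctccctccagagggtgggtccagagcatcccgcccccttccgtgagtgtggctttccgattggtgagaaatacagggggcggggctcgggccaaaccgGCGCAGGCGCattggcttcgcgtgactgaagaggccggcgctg
Mrpl49, chr1:212779298-212779577, minus strand: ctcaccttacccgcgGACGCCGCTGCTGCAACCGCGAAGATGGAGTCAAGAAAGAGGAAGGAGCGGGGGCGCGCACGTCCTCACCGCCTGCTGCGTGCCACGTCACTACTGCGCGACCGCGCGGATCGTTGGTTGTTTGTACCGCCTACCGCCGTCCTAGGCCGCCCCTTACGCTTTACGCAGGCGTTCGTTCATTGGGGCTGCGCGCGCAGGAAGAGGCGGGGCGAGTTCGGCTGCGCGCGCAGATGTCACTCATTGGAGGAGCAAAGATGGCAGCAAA
From these overlapping windows Mrpl49 fell and Fau rose. Mrpl49 stood at 0.191 of the lean level and 0.209 of the WKY level, while Fau had folds of 2.40 (adjusted p = 5.08e-18) and 2.36 (adjusted p = 4.68e-08) in the authors' deposited tables.

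Of 12 members whose promoter window overlaps that of a gene on the opposite strand, 8 had a partner in neither obese table, among them Hars2 with the cytosolic enzyme gene Hars1, Mrpl46 with Mrps11, and Mrpl47 with the complex I gene Ndufb5. In each obese comparison 3 of the 12 partners were listed, beside 23.1% and 23.3% of all protein-coding genes listed in either direction. The count of listed partners is near that share, so it is no result about shared promoters. Besides Fau, the listed partners were 3 genes that fell, of which only Ubfd1 was listed in both comparisons. Ubfd1, opposite Ears2, stood at 0.441 and 0.438 against lean and WKY hearts in the authors' deposited tables. Cnst, opposite Tfb2m, stood at 0.376 against lean hearts, and Ptcd2, a pentatricopeptide repeat protein of mitochondrial RNA opposite Mrps27, at 0.395 against WKY hearts, in the authors' deposited tables.

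No member was listed between ZSF1 lean and WKY hearts, and 0 fell or rose in the authors' deposited table from DESeq2. Of the 233 genes in that list 36.1% fell and 63.9% rose, and of all protein-coding RefSeq genes 0.302% were listed as fallen, 0.596% as risen and 0.898% in either direction. Counts at an unadjusted p or by another tool need values that were not analysed here. The position of the lean level relative to WKY can be approached for the 40 members in both obese tables by the fold over WKY divided by the fold over lean. Computed from the authors' deposited tables, this quotient had a median of 1.00 and quartiles of 0.908 and 1.08. It was lowest for Mrpl4 at 0.581, Mrpl45 at 0.702, Mrpl47 at 0.747 and Mrps36 at 0.780, and highest for Cars2 at 1.34, Tsfm at 1.28 and Tfb2m at 1.24. A quotient of lists that each require a fold of 0.5 or less has no error of its own and leaves out the 11 members in 1 table.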

How the data were processed

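Left ventricle RNA of 18 male rats (6 ZSF1 obese, 6 ZSF1 lean, 6 WKY) was sequenced. Per the labels' protocols, libraries were stranded and poly(A)-selected. Per the submitters' processing notes, HISAT2 2.1.0, HTSeq 0.11.2, DESeq2 1.22.2 and build Rnor_6.0 were used. Settings, and how reads matching more than 1 gene were counted, are not stated in the sources used here. The authors' deposited tables give, per the file headers, a fold (a linear ratio, numerator group named before its denominator) and an FDR (adjusted p-value) per gene. All rows pass a fold of 2 or above, or 0.5 or below, and an adjusted p under 0.05, as checked on the values. No levels per rat were used, so depth, spread between rats and left-out rats could not be examined.

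Members were matched by symbol on all rows, counted by direction and role, and set beside all listed genes and all RefSeq protein-coding genes (GRCr8, names only, 51 of 51 members matched). The p-values are those the authors adjusted over their whole comparison. The matching of members was tested on simulated tables and the motif search on made-up sequences. Named genes were, per role and obese comparison, the 4 smallest folds, the 3 smallest adjusted p-values and the 3 largest folds above 1, all members that are neither ribosomal proteins nor synthetases, and the 6 largest changes in each direction among other mitochondrial expression genes. Members are named beyond this rule to account for the set, and 1 member, kept in all counts and medians, is not reported here by name. Tfam, Tefm, Dap3, Fau, Ubfd1, Cnst, Ptcd2, Myh6 and the genes of the comparison lists were chosen after their values were seen. The members and lists were chosen with earlier results of these data known. Alternatives were stricter limits, other member sets and 1 count per symbol. Python 3.11.15, pandas 2.3.3 and matplotlib 3.10.9 were used.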

Additional observations from a re-analysis of the deposited data

How the results depend on the processing

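With an adjusted p under 0.01 or 0.001, or 1 count per symbol, the counts and medians of the members in both obese comparisons did not move. These settings could not move them. The weakest adjusted p of any member in the authors' deposited tables was 7.77e-06 over lean and 4.30e-06 over WKY, and 0 members shared a symbol. With a fold limit of 3, up or down, 20 members fell against lean hearts and 19 against WKY hearts, with median folds of 0.220 and 0.212, as a stricter limit leaves fewer and deeper falls. Members with an Mrpl or Mrps symbol, Mrps36 included, gave 25 and 27 falls, with medians of 0.398 and 0.361. The large and small subunits together, which leave out Mrps36, gave 24 and 26 falls, with medians of 0.393 and 0.358. Adding the other mitochondrial expression genes gave 80 and 79 falls and 1 rise in each comparison (Top1mt), with medians of 0.371 and 0.359. Without Mrps36, an alternative chosen after seeing the data, 45 and 44 members fell and the median against lean hearts was 0.344. For ZSF1 lean over WKY all of these settings left the counts at 0, and no median exists. No paired analysis was possible because the tables hold no values per rat and the rats of different groups share no numbers, and leaving out each rat could not be run for the same reason. With depth unknown, a member outside a list cannot be called unchanged.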

Other observations

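The folds deposited for ZSF1 lean over WKY lay nearer to 1 than the obese comparisons imply. In the authors' deposited tables, 79 genes stood in all 3 lists, and for 79 of these the deposited lean fold had the same direction as the fold of obese over WKY divided by that of obese over lean and lay nearer to 1. The log2 of the deposited lean fold was a median 0.794 of the log2 of the quotient, with a range of 0.407 to 0.993. Of 4847 genes in both obese tables, 235 had a quotient of 2 or above, or 0.5 or below, and 79 of these were in the lean list. The largest adjusted p in the authors' deposited table for ZSF1 lean over WKY was 0.000347, whereas the obese tables reached 0.0498 over lean and 0.0499 over WKY. The cause was not tested. Absence of the members from the lean list therefore covers a wider range of possible differences than absence from an obese list.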
